A study of Mus musculus with 4 samples.

Results

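The miR-106b-25 and miR-106a-363 clusters are the paralogues of the miR-17-92 cluster, and they were followed here through 6 mature miRNAs in 4 stages of mouse dendritic cell development. The members were taken by name from the deposited table, with values summed over hairpins. They are miR-106b-5p, miR-93-5p and miR-25-3p of the miR-106b-25 cluster, and miR-106a-5p, miR-20b-5p and miR-363-3p of the miR-106a-363 cluster. They make up 6 of the 1078 mature miRNAs in the table. Small RNA of 18 to 30 nt was sequenced from 4 cell populations of C57BL/6J mice, with 1 library per population. HSC were lineage-negative, c-Kit+ and Sca1+ haematopoietic stem cells sorted from bone marrow at a stated purity above 95%. The stated mouse age of 5 to 6 weeks stands with the marrow mononuclear cells of the dendritic cell cultures, in a protocol that all 4 libraries share. Immature dendritic cells (imDC) came from such marrow, cultured for 6 days in the cytokines GM-CSF (10 ng/mL) and IL-4 (1 ng/mL). For mature dendritic cells (maDC), LPS (10 ng/mL) was added to these cytokines from day 4, and cells binding CD11c beads were taken on day 8. The regulatory dendritic cells (DCreg) were such maDC kept for at least 7 days on endothelial-like splenic stromal cells and taken on CD11c beads again. With 1 library per population there is no replicate check and no test, so every difference below is between these libraries.

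A polycistronic cluster is transcribed as 1 precursor RNA from which several hairpins are cut, and each hairpin yields a mature strand from its 5p or 3p arm. A miRNA recognises its targets mainly through the seed, the bases 2 to 8 counted from its 5′ end, so members of different clusters that share a seed are predicted to share targets. The miR-17 and miR-92 seed families are best known for acting on cell cycle inhibitors and on the pro-apoptotic gene Bim, and the miR-17-92 cluster is known to be needed for normal B cell development. The miR-106b-25 hairpins lie in an intron of Mcm7, which encodes a subunit of the replicative helicase, so they are transcribed with that gene.

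The 6 mature sequences are shown in full because the comparison of the clusters depends on telling near-identical miRNAs apart. They are written as DNA letters, as in the deposited table, with the seed in capitals, and all 6 were identical to the RefSeq entries for GRCm38.p6. The miR-17-92 counterparts follow them.
miR-106b-5p: tAAAGTGCtgacagtgcagat
miR-93-5p: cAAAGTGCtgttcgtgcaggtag
miR-106a-5p: cAAAGTGCtaacagtgcaggtag
miR-20b-5p: cAAAGTGCtcatagtgcaggtag
miR-25-3p: cATTGCACttgtctcggtctga
miR-363-3p: aATTGCACggtatccatctgta
miR-17-5p: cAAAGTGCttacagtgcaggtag
miR-20a-5p: tAAAGTGCttatagtgcaggtag
miR-92a-3p: tATTGCACttgtcccggcctg

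The first 4 members carry the miR-17 seed and the other 2 carry the miR-92 seed, so each cluster holds both kinds. Counted from 1 at the 5′ end, miR-106a-5p differs from miR-17-5p only by T10A. miR-20b-5p differs from miR-20a-5p by T1C and T10C. miR-25-3p and miR-92a-3p differ at 3 of the 21 positions compared, namely C1T, T14C and T18C. miR-363-3p shares the seed of miR-25-3p but differs from it at 13 of 22 positions.

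By their RefSeq positions in GRCm38.p6, the hairpins Mir106b, Mir93 and Mir25 lie on the minus strand at chr5:138165321-138165818, a span of 498 nt. All 3 fall in intron 13 of Mcm7, a gene of 15 exons on the same chromosome, with 126 nt between Mir106b and Mir93 and 118 nt between Mir93 and Mir25. The miR-106a-363 cluster lies on the minus strand at chrX:52741693-52742567. It holds 6 hairpins in 875 nt, in the order Mir106a, Mir18b, Mir20b, Mir19b-2, Mir92-2 and Mir363. In the GENCODE annotation of the same build, Mir106a overlaps the 3′ end of Kis2, a gene on the same strand, and no gene other than miRNA genes overlaps the other 5.

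Levels are deposited normalised read counts divided by the library's column total and given as parts per 1000000 (ppm). Beside them stand recounts made from the deposited lists of unique sequences, which give whole reads and 95% Clopper-Pearson intervals. These intervals cover counting error only, since PCR copies were not marked by molecular identifiers and cannot be counted as separate molecules. The deposited columns sum to between 2725948 and 5251069, and the lists hold between 4904897 and 6572858 reads, of which 80.2% to 84% were placed on a mature miRNA. A difference is called when the ratio, with 0.5 added to each deposited value, was at least 2-fold and the miRNA reached 100 ppm in 1 of the 2 libraries. Markers set the libraries beside their labels. The 5 dendritic cell and Toll-like receptor miRNAs, among them miR-155-5p and miR-146b-5p, summed to 7806, 94134, 70075 and 37876 ppm in HSC, imDC, maDC and DCreg. Most of each sum was miR-146b-5p, with 6182, 89225, 67585 and 36546 ppm. miR-146a-5p alone of the 5 was highest in HSC, with 1561, 1105, 309.2 and 1115 ppm, and the other members were lowest there. The 5 stem and progenitor miRNAs summed to 2727, 610.4, 1046 and 2763 ppm, so the sum did not separate HSC from DCreg, but its members differed. Most of the sum was miR-10a-5p, with 2193 ppm in HSC and 2042 ppm in DCreg. miR-196b-5p (251.3 against 12.47 ppm) and miR-126-3p (49.21 against 0.3668 ppm) were higher in HSC than in DCreg. miR-99a-5p (175.3 against 344.8 ppm) and miR-125b-5p (57.97 against 363.2 ppm) were lower. The 3 myeloid miRNAs summed to 23530, 12638, 14196 and 10141 ppm, so this list was highest in HSC and did not set the dendritic cells above it. Markers of other cells also moved, in the same order of libraries: the 4 erythroid miRNAs summed to 15231, 19.42, 1.564 and 2.201 ppm and the 3 muscle miRNAs to 8676, 40.56, 45.58 and 259 ppm. The 5 stromal miRNAs summed to 1083, 61.32, 177.2 and 254.6 ppm, the lymphoid marker miR-150-5p stood at 913.8, 17.14, 1.564 and 2.201 ppm, and the 2 strands of the endothelial miR-126 at 120.9, 7.998, 2.458 and 1.467 ppm. Of all these markers, only the erythroid miR-144-5p and the muscle miR-133a-3p were at 0, both in maDC and DCreg. What part such cells had in the HSC levels below was not tested. Fewer cells of a type and less of a miRNA per cell cannot be told apart in such libraries.

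The followed members of both clusters stood highest in HSC, but at very different levels. The miR-106b-25 cluster summed to 40306, 17076, 5181 and 3828 ppm in HSC, imDC, maDC and DCreg. The miR-106a-363 members followed here summed to 372.4, 32.95 and 1.787 ppm in HSC, imDC and maDC and were listed at 0 in DCreg. In reads, that is 114864, 65212, 16017 and 8277 for miR-106b-25 and 1058, 122, 4 and 0 for miR-106a-363. The Mcm7-hosted members therefore exceeded the X-linked members followed here 108-fold in HSC, 518-fold in imDC and 2898-fold in maDC. The X-linked sum leaves out the products of Mir18b, Mir19b-2 and Mir92-2. Among these, miR-92a-3p (11043 ppm in HSC) and miR-19b-3p also come from miR-17-92 and cannot be given to a cluster. The ratios here are therefore not ratios of whole clusters. The recounts put the same ratios at 109 (102 to 115), 535 (448 to 644) and 4004 (1564 to 14698). In DCreg the deposited ratio was at least 3478-fold, taking 3 units as the floor for a sum of 0. The recount gave at least 2759-fold with a floor of 3 reads, and its interval starts at 2243. The floor was set once for the sum, and a floor for each member would lower the bounds of 3478 and 2759.

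**Figure D1:**
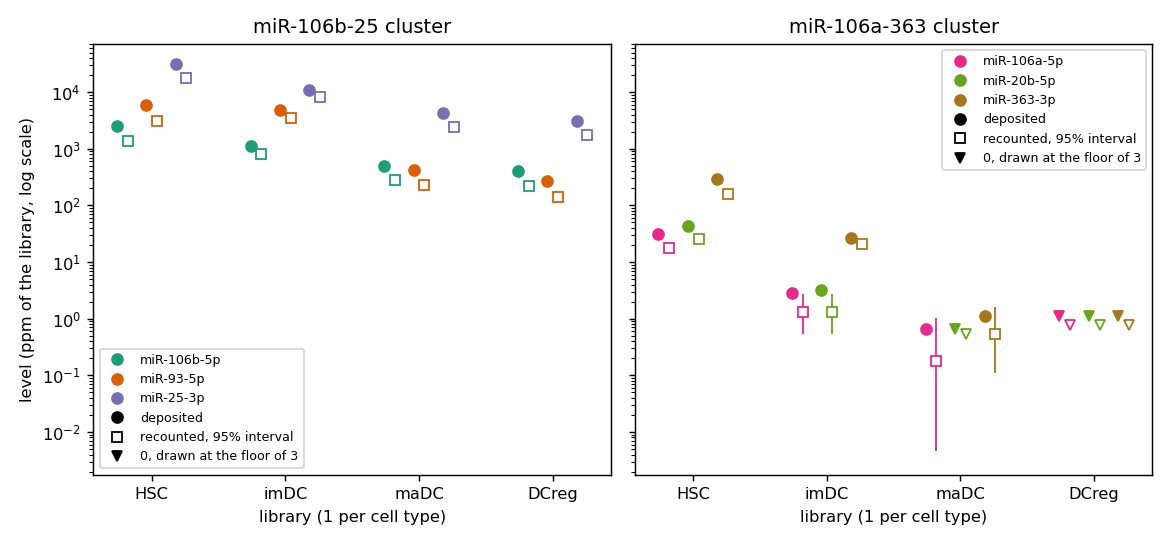
Level of each of the 6 miRNAs in the 4 libraries, in parts per 1000000 on a log axis, as deposited (filled circles) and recounted (open squares with 95% counting intervals); triangles mark a value of 0 drawn at the floor of 3 units or 3 reads. The miR-106b-25 members stay at or above 139.1 ppm in every library by either measure, while those of miR-106a-363 are all at 0 in DCreg.

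miR-25-3p was the most abundant member in every library. It had 31966, 11014, 4263 and 3157 ppm in HSC, imDC, maDC and DCreg, and ranked 10, 18, 24 and 24 among all mature miRNAs. Its levels fall in stage order, and the recount kept that order with 17677, 8116, 2387 and 1744 ppm. The smallest step was between DCreg and maDC.

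miR-93-5p, which carries the miR-17 seed, had 5857, 4920, 425 and 266 ppm in the same order. It was thus high in both HSC and imDC and low in both maDC and DCreg. In the recount imDC stood slightly above HSC, with 3436 ppm (3386 to 3486) in imDC and 3059 ppm (3012 to 3107) in HSC, so the order of these 2 libraries depends on the measure. The recounted levels were 233.2 ppm in maDC and 139.1 ppm in DCreg.

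miR-106b-5p, the first hairpin of the Mcm7 cluster, had 2483, 1142, 493.1 and 405 ppm. It was lower than miR-93-5p in HSC and imDC and higher than it in maDC and DCreg. The recount gave 1362, 825.2, 279.3 and 221.2 ppm, with the same order of the libraries.

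miR-363-3p comes from the last hairpin of the X-linked cluster and was the most abundant of its 3 members in HSC and imDC. It had 297.9, 26.85 and 1.117 ppm in HSC, imDC and maDC and was listed at 0 in DCreg. Its reads numbered 831, 108, 3 and 0. miR-20b-5p had 43.54 and 3.237 ppm in HSC and imDC and was listed at 0 in maDC and DCreg, on 135, 7, 0 and 0 reads. miR-106a-5p had 31, 2.857 and 0.6703 ppm in HSC, imDC and maDC and was listed at 0 in DCreg, on 92, 7, 1 and 0 reads. All 3 were highest in HSC. In DCreg the floor of 3 reads stands at 0.7628 ppm, and the counting interval of 0 reads reaches 0.938 ppm for each. The order of the 3 in maDC cannot be read from so few reads.

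In imDC against HSC, the fall was steepest in the X-linked members followed here. The miR-106a-363 sum was 11.3-fold lower in imDC than in HSC (8.79-fold, 7.28 to 10.7, in the recount) and the miR-106b-25 sum 2.36-fold lower (1.79-fold, 1.77 to 1.8). Of the 4 members that reached 100 ppm in either library, 3 were called lower and 0 higher. Among all 187 miRNAs tested, 28.3% were called lower and 26.2% higher in imDC. The called members were miR-363-3p, 11.1-fold lower (7.8-fold, 6.38 to 9.62, in the recount), miR-25-3p, 2.9-fold lower (2.18-fold, 2.15 to 2.2), and miR-106b-5p, 2.17-fold lower (1.65-fold, 1.59 to 1.71).

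The recounted fold of miR-106b-5p is below the 2-fold line, as is that of the miR-106b-25 sum, and its log2 ratio was -0.91 under the trimmed mean of M-values. miR-93-5p was 1.19-fold lower in imDC by the deposited values and 1.12-fold higher (1.1 to 1.15) by the recount, which is not called either way. miR-20b-5p and miR-106a-5p were under the level minimum. They had 3.237 and 2.857 ppm in imDC, against 43.54 and 31 ppm in HSC, or 13.4-fold and 10.9-fold lower. Of the members that reached the level minimum, miR-363-3p, miR-25-3p and miR-106b-5p had log2 ratios of -3.47, -1.54 and -1.12. The median of the 6 members was -2.47, but it includes the 2 under that minimum. It is therefore not over a like set to the 187 miRNAs that reached the minimum, whose median was -0.12. The log2 ratio of miR-93-5p was -0.25, near that median, and the other 5 lay more than 1 unit below it, as the plot of ratios by comparison shows.

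**Figure D2:**
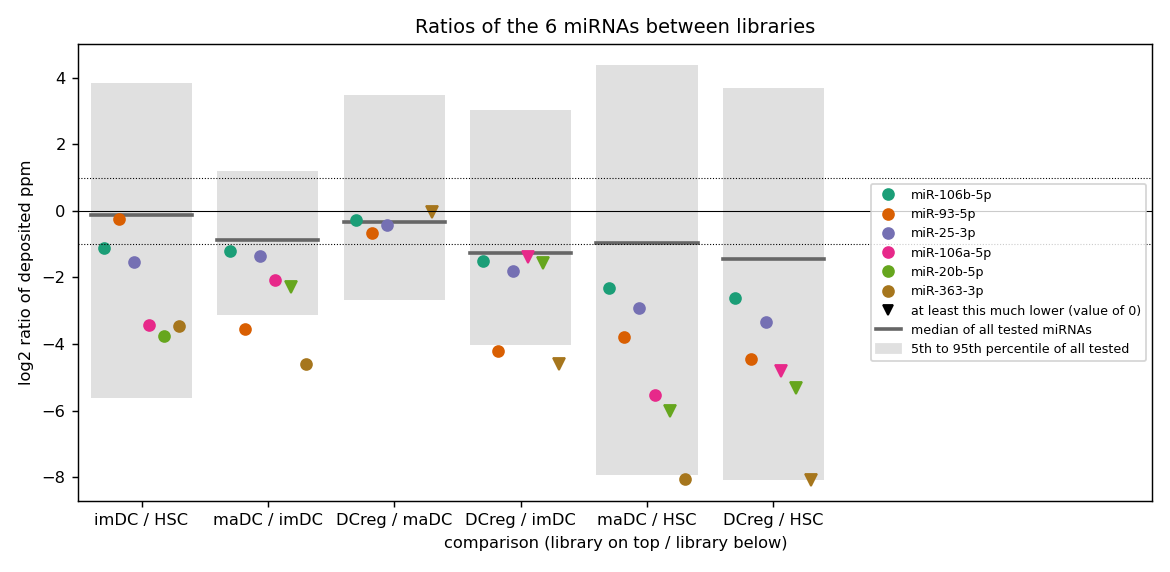
Log2 ratio of deposited ppm for each of the 6 miRNAs in 6 comparisons of libraries (points), with triangles where the upper library is at 0 and the ratio is a bound against a floor of 3 units. The grey line and box give the median and the 5th to 95th percentile of all miRNAs tested; members that exceed the floor in neither library are not drawn, and miR-93-5p lies below the box in maDC against imDC and in DCreg against imDC.

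In maDC against imDC, the 3 members of the Mcm7 cluster parted. miR-93-5p had 425 ppm in maDC, against 4920 ppm in imDC, and was 11.6-fold lower (14.7-fold, 13.9 to 15.6, in the recount). Its log2 ratio of -3.53 was the fourth lowest of the 160 miRNAs tested. miR-25-3p was 2.58-fold lower (3.4-fold, 3.33 to 3.47) and miR-106b-5p 2.32-fold lower (2.95-fold, 2.79 to 3.13), with log2 ratios of -1.37 and -1.21. All 3 were called lower, but so were 45% of all miRNAs tested, while 9.38% were called higher, and the median log2 ratio over all of them was -0.88. The ratios of miR-25-3p and miR-106b-5p thus lie near the general shift between these libraries. With scaling by the trimmed mean of M-values, which reduces that shift to -0.33, only miR-93-5p remained called, with miR-25-3p at -0.82 and miR-106b-5p at -0.66.

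The X-linked members were under the level minimum in maDC and imDC, so none was called. miR-363-3p had 3 reads in maDC, against 108 in imDC, a recounted ratio 37.7-fold lower with an interval of 12.6 to 186. miR-106a-5p had 1 read in maDC, against 7 in imDC, and its 7.34-fold lower ratio has an interval of 0.943 to 331, which includes no difference. miR-20b-5p had 0 reads in maDC, against 7 in imDC.

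In DCreg against maDC, none of the 3 members above the level minimum was called. Among all 138 miRNAs tested, 28.3% were called lower and 20.3% higher. miR-106b-5p was 1.22-fold lower, miR-25-3p 1.35-fold lower and miR-93-5p 1.6-fold lower in DCreg, and the median log2 ratio of all miRNAs was -0.34. The recounted folds were 1.26 (1.16 to 1.37), 1.37 (1.33 to 1.41) and 1.68 (1.52 to 1.86) for the same members. Of the miR-17-92 main arms, miR-92a-3p and miR-17-5p were called lower in DCreg, by 2.19-fold and 2.35-fold. Whether the clusters differ in this step was not tested.

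Over the longer spans the falls added up. In maDC against HSC, miR-93-5p was 13.8-fold lower, miR-25-3p 7.5-fold lower and miR-106b-5p 5.04-fold lower. miR-363-3p had 1.117 ppm in maDC, against 297.9 ppm in HSC, and its recounted ratio of 3 to 831 reads was 294-fold lower with an interval of 100 to 1430. These 4 members were all called lower, against 48.9% of the 180 miRNAs tested, and 0 was called higher, against 21.7%. In DCreg against HSC, the same members were called lower, against 56% of 175 miRNAs, with 19.4% of them higher. The folds were 22 for miR-93-5p, 10.1 for miR-25-3p and 6.13 for miR-106b-5p. With the floor of 3 units or 3 reads, miR-363-3p was at least 271-fold lower in DCreg than in HSC by the deposited values and 210-fold by the recount. The counting interval of the recount starts lower, at 170-fold.

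In DCreg against imDC, miR-93-5p was 18.5-fold lower, the seventh lowest of 168 miRNAs. miR-25-3p was 3.49-fold lower and miR-106b-5p 2.82-fold lower. All 3 were called, against 56% of miRNAs called lower and 16.1% called higher, and the median log2 ratio of all miRNAs was -1.25. miR-106b-5p lost its call under the trimmed mean of M-values, with a log2 ratio of -0.84, and under the median of ratios, with -0.78. miR-363-3p, under the level minimum here, was at least 24.4-fold lower in DCreg with the floor of 3 units. The counting interval of its recount starts at 21.5-fold.

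The make-up of the miR-106b-25 cluster differed between stages, mostly in the part of miR-93-5p. Of the cluster's recounted reads, miR-93-5p made up 13.8% (13.6 to 14) in HSC and 27.8% (27.4 to 28.1) in imDC, but 8.04% (7.62 to 8.47) in maDC and 6.61% (6.08 to 7.17) in DCreg. The miR-25-3p share of the deposited sum was 79.3%, 64.5%, 82.3% and 82.5% in stage order. miR-106b-5p rose in share by stage, with 6.16%, 6.67%, 9.63% and 10.5% of the recounted reads. These shares do not depend on how a library was scaled. In HSC the reads of the miR-106a-363 members followed here were 78.5% miR-363-3p (75.9 to 81), 12.8% miR-20b-5p (10.8 to 14.9) and 8.7% miR-106a-5p (7.07 to 10.6).

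**Figure D3:**
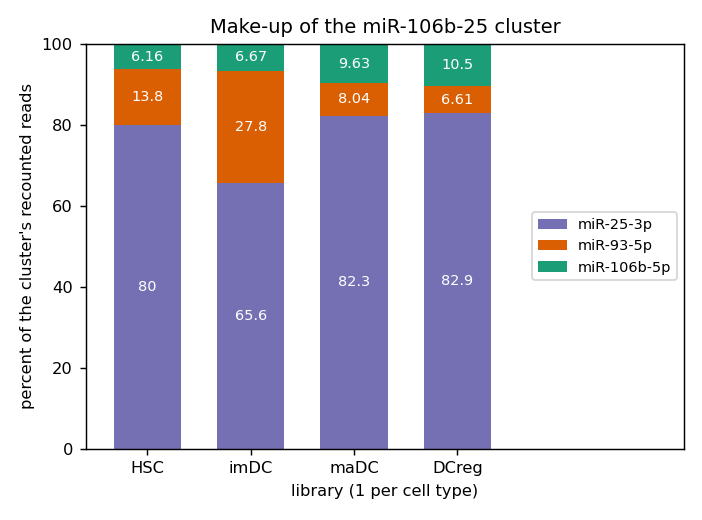
Share of each of the 3 mature miRNAs in the recounted reads of the miR-106b-25 cluster, in percent, for the 4 libraries (stacked bars, reaching the whole cluster). The miR-93-5p part is largest in imDC, at 27.8%, and smallest in DCreg, at 6.61%.

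The minor strands of the 3 Mcm7 hairpins give a second reading of the same precursors, but miR-93-3p had few reads. Its recounted level in imDC was 1.44-fold lower than in HSC (0.85 to 2.48), an interval that includes no difference, beside 1.12-fold higher for miR-93-5p. miR-25-5p had 2639, 1038, 296 and 161 reads in HSC, imDC, maDC and DCreg, and miR-106b-3p had 496, 329, 76 and 46 reads. They were 2.58-fold (2.4 to 2.77) and 1.53-fold (1.33 to 1.76) lower in imDC than in HSC by the recount, beside 2.18-fold for miR-25-3p and 1.65-fold for miR-106b-5p. Of 194 miRNAs that reached 100 ppm in a library, these 2 minor strands had the profiles most like the cluster sum. Most of that sum was miR-25-3p in every library. The Euclidean distances of the 2 strands, between centred log2 profiles over 4 libraries, were 0.309 and 0.324. The next were miR-139-5p at 0.492, miR-181c-5p at 0.57 and miR-1306-3p at 0.591. For the miR-106a-363 sum the nearest were miR-150-3p at 1.8, miR-150-5p at 2.59, miR-676-3p at 2.6, miR-92a-3p at 2.65 and miR-143-5p at 2.66. All of these stood highest in HSC, and the nearest of them was farther from its cluster than all 5 neighbours of miR-106b-25 were from theirs.

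Arm use was steady for the abundant hairpins. miR-25-3p held 97.2% to 97.8% of its hairpin's reads in the 4 libraries, and miR-106b-5p held 93% to 95.3%. miR-93-5p held 99.6% to 99.9%, since miR-93-3p had only 37, 26, 3 and 2 reads. The deposited values of miR-93-3p were 57, 47, 28 and 63, so that 2 exact reads stood beside its highest deposited level, 23.11 ppm in DCreg. miR-363 was the least one-sided hairpin, with 831 reads from the 3p arm and 225 from the 5p arm in HSC, or 78.7% from the 3p arm (76.1 to 81.1). In imDC the numbers were 108 and 16, or 87.1% (79.9 to 92.4). In maDC they were 3 and 6, or 33.3% (7.49 to 70.1), and in DCreg 0 and 1, so that in maDC the 5p arm had more reads, on 9 in all.

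The X-linked transcript also encodes strands that cannot be separated from miR-17-92. miR-92a-3p and miR-19b-3p have a hairpin in each cluster with the same mature sequence, so their reads cannot be given to a locus. The passenger strands of the miR-92a hairpins differ. They were chosen after their own values had been seen, so their values are a description and support nothing.
miR-92a-2-5p: aGGTGGGGattggtggcattac
miR-92a-1-5p: aGGTTGGGatttgtcgcaatgct

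miR-92a-2-5p, from the X-linked hairpin, had 152, 1, 0 and 0 reads in HSC, imDC, maDC and DCreg. miR-92a-1-5p, from the chromosome 14 hairpin of miR-17-92, had 314, 330, 33 and 7 reads. With a single read in imDC, against 152 in HSC, miR-92a-2-5p was 154-fold lower with an interval of 27.2 to 6125. miR-92a-1-5p had 1.04 times the HSC level in imDC (0.886 to 1.21). miR-18b-5p, also X-linked, had deposited values of 28, 3, 1 and 0. Of its reads, part tie with miR-18a-5p and were divided between them.

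In the plot of imDC over HSC ratios, the other 5 X-linked strands drawn had recounted ratios of 0.128 for miR-363-3p (0.104 to 0.157), 0.0751 for miR-106a-5p (0.0294 to 0.161), 0.0702 for miR-363-5p (0.0394 to 0.116), 0.0512 for miR-20b-5p (0.0202 to 0.108) and 0.153 for miR-18b-5p (0.0566 to 0.394). Of the miR-17-92 main arms, 4 have no copy in the X-linked cluster, and their log2 ratios of deposited ppm in imDC over HSC were -0.17 for miR-17-5p, 0.13 for miR-18a-5p, -0.72 for miR-19a-3p and -0.54 for miR-20a-5p. Of these, miR-19a-3p was under the level minimum, with 10.41 ppm in HSC and 6.284 ppm in imDC. None of the others was called lower, against 28.3% of all miRNAs tested. In maDC against imDC, miR-17-5p, miR-18a-5p and miR-20a-5p were called lower, as were 45% of all miRNAs, with log2 ratios of -2.15, -1.35 and -2.28, and miR-19a-3p was under the level minimum with -1.59. The strands shared by both clusters, miR-92a-3p and miR-19b-3p, were 17.2-fold and 17.3-fold lower in maDC, next to 11.6-fold for miR-93-5p.

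**Figure D4:**
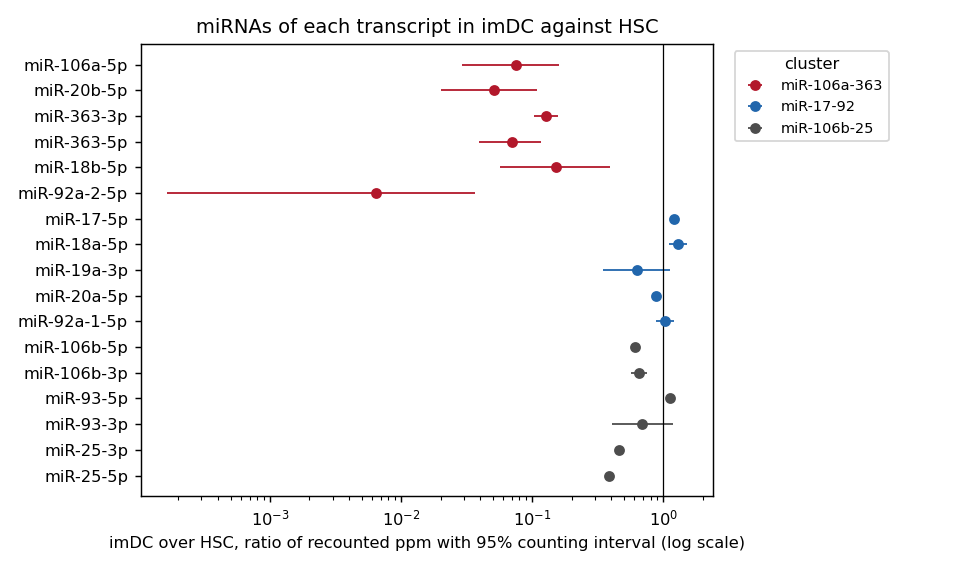
Ratio of recounted ppm in imDC over HSC, on a log axis, for strands assigned to 1 cluster (points; reads that tie between miR-18a-5p and miR-18b-5p are divided) with 95% counting intervals (bars). The 6 strands of miR-106a-363 lie between 0.00649 and 0.153, with intervals up to 0.394 for miR-18b-5p, and those of miR-17-92 and miR-106b-25 lie between 0.388 and 1.3, with intervals from 0.345 for miR-19a-3p to 1.52 for miR-18a-5p; both miR-92a passenger strands were chosen after their values had been seen, and strands with 0 reads in imDC are not drawn.

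Because of these levels, miR-106b-25 supplied most of the miRNA with either seed. The 6 mature miRNAs with the miR-17 seed summed to 9584, 7005, 1123 and 766.3 ppm in HSC, imDC, maDC and DCreg. miR-93-5p and miR-106b-5p together made up 87%, 86.5%, 81.8% and 87.6% of these sums, and 86.3%, 85.9%, 81% and 87.4% of the recounted reads with this seed. miR-106a-5p and miR-20b-5p made up 0.778% in HSC and 0.087% in imDC. The 6 mature miRNAs with the miR-92 seed summed to 43425, 17648, 4687 and 3412 ppm. miR-25-3p made up 73.6%, 62.4%, 91% and 92.5% of them, or 63.7%, 52.8%, 90.4% and 91.2% of the recounted reads with this seed, and miR-363-3p 0.686% in HSC and 0.152% in imDC. The deposited value per read differed between these miRNAs: in HSC it was 46673 on 51147 recounted reads for miR-92a-3p and 135105 on 91884 for miR-25-3p.

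The near-identical sequences were told apart by exact reads. Allowing 1 mismatch where no exact match existed added 8.33% to the 92 miR-106a-5p reads in HSC and 10.9% to the 135 reads of miR-20b-5p. It added 8.12% to miR-17-5p and 8.28% to miR-20a-5p there. On the 7 imDC reads of each X-linked member it added 35.7% to miR-106a-5p and 26.2% to miR-20b-5p, with reads that tie divided between sequences. In DCreg, 0 exact reads of either X-linked member were found beside 121 of miR-17-5p and 84 of miR-20a-5p. The sources used here do not say how many mismatches the deposited values allow.

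The reads also show how the ends of these miRNAs vary. Of miR-25-3p reads, 25.6% in HSC (25.3 to 25.9) and 24.1% in imDC (23.7 to 24.5) ended at least 2 nt before the annotated 3′ end with no unmatched base after it. In maDC and DCreg the shares were 1.85% (1.63 to 2.1) and 5.71% (5.18 to 6.29). Its 4 most frequent forms show where the reads ended.
miR-25-3p, 22 nt: cATTGCACttgtctcggtctga
miR-25-3p, 21 nt: cATTGCACttgtctcggtctg
miR-25-3p, 20 nt: cATTGCACttgtctcggtct
miR-25-3p, 19 nt: cATTGCACttgtctcggtc

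The whole 22 nt sequence held 53.7%, 55.3%, 68.4% and 60.7% of the reads in stage order, and the 21 nt form 12.5%, 13.3%, 18.5% and 21.8%. The 20 nt form held 13.9%, 12.1%, 0.918% and 2.39% of miR-25-3p reads, and the 19 nt form 6.91%, 6.03%, 0.432% and 1.31%. Other miRNAs moved the same way in part. Over 112 other miRNAs with at least 100 reads in every library, the median share of reads at least 2 nt short was 7.72%, 6.72%, 2.31% and 5.73%. Of these, 46, or 41.1%, had both HSC and imDC above both maDC and DCreg, as miR-25-3p did. Most of the 112 did not show that split, and what part of the shortening belongs to miR-25-3p was not tested.

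miR-93-5p was shortened in a different order of libraries from miR-25-3p. Its reads at least 2 nt short made up 29.4% (28.7 to 30.1) in HSC and 21.5% (20.9 to 22.1) in imDC, 8.85% (7.36 to 10.5) in maDC, and again 21.6% (18.2 to 25.3) in DCreg. The median of the 112 other miRNAs was likewise lowest in maDC and higher again in DCreg. Of these 112, 89, 89, 88 and 92 had a smaller share than miR-93-5p in stage order. For miR-25-3p the numbers were 87, 89, 45 and 56. The whole 23 nt sequence held 18.6%, 35.5%, 54.7% and 36.9% of the reads, and the 22 nt form that lacks the last base held 43.5%, 35.1%, 17.6% and 20.1%. The commonest form was therefore the 22 nt one in HSC and the 23 nt one in maDC and DCreg, while imDC had them about equal. For miR-106b-5p, 2.16%, 4.69%, 1.23% and 5.06% of reads were at least 2 nt short. Its reads split mainly between the annotated 21 nt form, with 36.8%, 35.7%, 39% and 47%, and a form with 1 more a, with 36%, 38.2%, 34.2% and 19.2%.
miR-106b-5p, 21 nt: tAAAGTGCtgacagtgcagat
miR-106b-5p, 22 nt: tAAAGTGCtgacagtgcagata

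**Figure D5:**
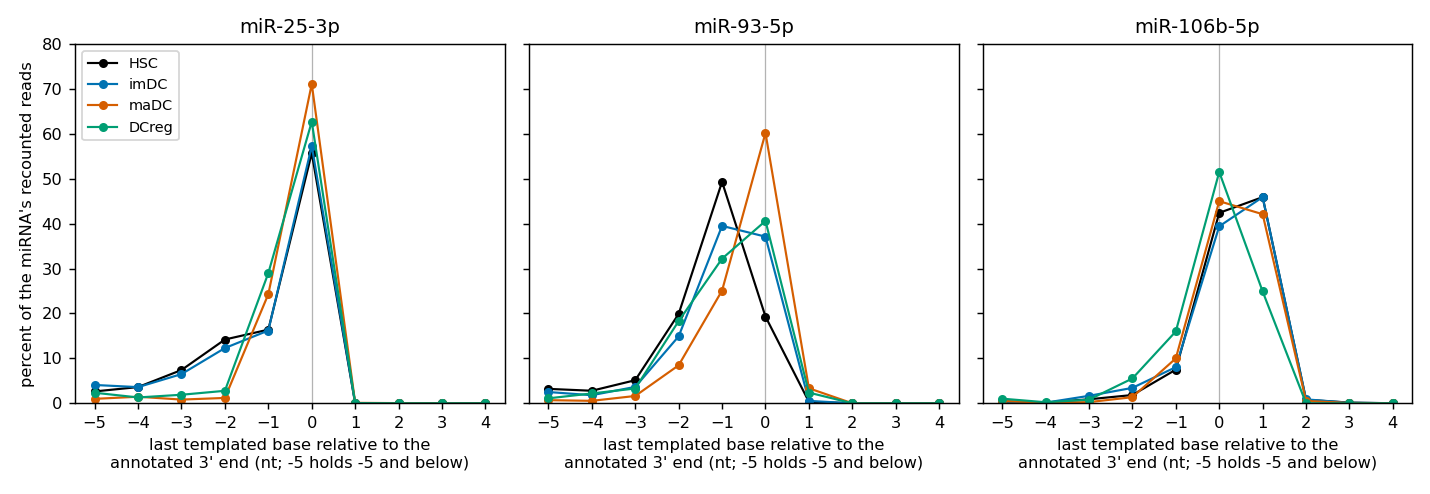
Percent of each miRNA's recounted reads by the position of the last base that matches the hairpin, relative to the annotated 3′ end, for the 3 miR-106b-25 members and the 4 libraries (lines); reads with unmatched bases after that position are included, unlike in the shares of short reads given in the text. Reads of miR-25-3p at -2 and below are more frequent in HSC and imDC than in maDC and DCreg, and the peak of miR-93-5p lies at -1 in HSC and at 0 in maDC.

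The 5′ end sets the seed, and miR-363-3p was the member whose 5′ end varied. Of its HSC reads, 54.6% (51.2 to 58.1) started at the annotated base and 44.2% (40.8 to 47.6) 1 base downstream. In imDC the shares were 50.9% (41.1 to 60.7) and 47.2% (37.5 to 57.1), so the libraries do not differ beyond counting error. The later start shifts the seed by 1 base, as the 2 most frequent forms of each start show, and those ending in the extra t carry an untemplated base.
miR-363-3p, annotated start: aATTGCACggtatccatctgta
miR-363-3p, annotated start: aATTGCACggtatccatctgtat
miR-363-3p, later start: aTTGCACGgtatccatctgtat
miR-363-3p, later start: aTTGCACGgtatccatctgta

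In HSC these 4 forms held 17.8%, 14.9%, 13.8% and 10.5% of the miR-363-3p reads. miR-106b-5p, miR-93-5p, miR-25-3p and miR-20b-5p started at the annotated base in at least 98.4% of reads in every library where they had reads. miR-106a-5p did so in 93.5% of 92 HSC reads (86.3 to 97.6). The median share of other starts over the 112 other miRNAs was 0.875% in HSC, and 102 of them had a smaller share than the 45.4% of miR-363-3p. Untemplated tails of t alone were on 33.9% of miR-363-3p reads in HSC (30.7 to 37.3) and 35.2% in imDC (26.2 to 45). On miR-25-3p they were on 4.45%, 3.42%, 6.35% and 7.57% of reads in stage order. Tails of a alone were more frequent later on miR-93-5p, with 2.71%, 3.67%, 8.93% and 8.96%, and on miR-106b-5p, with 4.82%, 5.17%, 7.78% and 8.05%. Over the 112 other miRNAs, the median share of reads with 3′ bases unmatched to the mature sequence was 25.8%, 24.3%, 30.8% and 29.5%. Whether the tails belong to single members was not tested.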

How the data were processed

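The series table holds, for each mature miRNA and hairpin, a whole-number score that the file header calls normalised counts, as the authors deposited it. Per the labels' protocols, reads of ribosomal, transfer, messenger, small nuclear and small nucleolar RNA were removed and the rest compared with miRBase release 19. The sources used here do not state the normalisation, the aligner or the mismatches allowed. The authors also deposited a list of unique sequences with copy numbers (other records, read counts) for each library. No sample column was left unused.

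Scores were summed over hairpins and divided by the column total. Reads were recounted by exact match to the mature sequences of the table: at least 16 matched nt, a start no more than 2 nt from the annotated base, at most 5 unmatched 3′ bases, the longest match taken and ties divided. The recount was tested on simulated reads. Folds are plain ratios of ppm. Calls and log2 ratios use a pseudocount of 0.5 on the score. Intervals are 95% Clopper-Pearson intervals, conditional on the total for ratios. The floor for a value of 0 is 3 units or 3 reads. No p-value was computed, since each cell type has 1 library.

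The named miRNAs are the 6 members, the other arms of their hairpins, the other products of the X-linked transcript, the miR-17-92 main arms and the 5 nearest profiles of each cluster. The 92a passenger strands were added after their own values had been seen. The members and the lists were chosen with earlier results of these data known. Alternatives were another pseudocount (5), level minima (10 ppm or none), 4 other scalings and 5 recounts. Python 3.11.15, numpy 2.4.6, pandas 2.3.3, scipy 1.17.1 and matplotlib 3.10.9 were used.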

Additional observations from a re-analysis of the deposited data

How the results depend on the processing

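No left-out replicate and no paired analysis was possible because each cell type has 1 library. Of 144 counts of members called under an alternative, 136 stayed within 1.5 times the count reported. The exceptions were all counts of members called lower. In imDC against HSC it was 5 with no level minimum and 5 with a minimum of 10 ppm, and 1 with recounted reads of the annotated 5′ end. In maDC against imDC it was 6 with no level minimum, 1 under scaling by trimmed means of M-values (TMM) and 1 under the median of ratios, against a count of 3 as reported. With no level minimum it was 2 in DCreg against maDC and 6 in DCreg against imDC.

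Of 120 cluster sums under an alternative, 114 kept their call, and the other 6 are the miR-106b-25 sum in imDC against HSC, which no longer reached 2-fold. Its log2 ratio of -1.24 became -0.99 with all reads of the lists as the total. It became -0.84 with recounted reads, -0.83 with the annotated 5′ end, -0.75 with no unmatched 3′ base, -0.82 with no ties and -0.85 with 1 mismatch allowed. Of 408 ratios of single members, 16 lost their call. They were miR-106b-5p in imDC against HSC under TMM (-0.91), with all reads as the total and under the 5 recounts, and in DCreg against imDC under TMM and the median of ratios. They were also miR-106b-5p and miR-25-3p in maDC against imDC under both scalings, and miR-363-3p against HSC in imDC, maDC and DCreg with the annotated 5′ end, where it no longer reached 100 ppm. Another 21 gained a call, all X-linked members under a lower level minimum. A further 7 changed sign, none of them called. For miR-93-5p in imDC against HSC, -0.25 became 0.17 with recounted reads, 0.17 with the annotated 5′ end, 0.26 with no unmatched 3′ base, 0.18 with no ties and 0.14 with 1 mismatch. For miR-106b-5p in DCreg against maDC, -0.28 became 0.066 without the 5 most abundant miRNAs in the total and 0.080 with recounted reads that have no unmatched 3′ base. The cause of these changes was not tested. Scaling moved the median log2 ratio of the miRNAs tested in maDC against imDC from -0.88 to -0.33 (TMM) and to -0.18 (median of ratios), and the numbers called lower and higher from 72 and 15 to 43 and 27, and to 32 and 31. In imDC against HSC the recount gave 27 lower and 54 higher, against 53 and 49 as reported. Beyond their counting intervals moved 155 of 216 levels under another scaling or recount, 4 of 21 arm shares with the deposited values, and 11 of 24 read numbers of near-identical miRNAs with 1 mismatch allowed. For the levels, the intervals were set on the deposited values as if these were read counts. Another scaling also moves all levels of a library by the same factor, so the 155 is no measure of their stability. Of 15 shares of shortened reads, 13 moved beyond their counting interval when reads with unmatched bases were left out. Depth limits the X-linked members, which have 4 reads in maDC and 0 in DCreg.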

Other observations

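The deposited value per recounted read lay between 1.25 and 1.56 for the 3 miR-106b-25 members in the 4 libraries. For miR-93-3p it was 1.54 in HSC and 1.81 in imDC, and 9.33 in maDC and 31.5 in DCreg, where 3 and 2 exact reads stood beside deposited values of 28 and 63. For miR-92a-3p it was below 1 in HSC, with 46673 deposited on 51147 reads, and above 1 in maDC, with 1702 on 1246.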
